A study of Mus musculus with 6 samples.

Results

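The chemokines and their receptors were followed as 1 gene family in the fat of NOD mice, which become diabetic through autoimmune loss of their beta cells. The members are the genes whose symbol is Ccl, Cxcl, Ccr or Cxcr with a number, together with Cx3cl1 and Cx3cr1, on probe sets that carry 1 gene symbol. They come to 47 of the 18193 genes that the arrays named in this way, measured by 75 probe sets. Each gene was read from its probe set with the highest mean signal over the 6 arrays, and 27 of the 47 had a mean signal above 164, the 40th percentile of all probe sets, which served as the filter on low values.

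The study set fat from mice treated with AAT (alpha-1-antitrypsin, a serum inhibitor of proteases) beside fat from diabetic and normoglycemic NOD mice, with 2 Affymetrix arrays of total RNA for each of the 3 groups. The AAT-treated mice had stably reverted and were independent of insulin. The diabetic mice had held a blood glucose above 300 mg/dl for 3 days in a row. The normoglycemic mice were females aged 10 weeks. Age and sex of the AAT-treated and diabetic mice, the dose and length of the treatment and the fat depot are not given in the sources used here. Nothing in the labels tells whether the arrays of one group are separate mice, and the p-values reflect just the spread among these samples, which may be technical.

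Chemokines are small secreted proteins that steer leukocytes along gradients and arrest them on vessel walls by binding receptors of the G protein-coupled class. The CC and CXC families are named for the spacing of their first cysteines. In fat, CCR2 and its ligands are known for drawing monocytes that become tissue macrophages, while stromal ligands such as CXCL12 are made by resident cells and hold lymphocytes and progenitors in place.

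The family is clustered in the genome: 14 members lie on chromosome 11, most of them CC ligands, 10 on chromosome 5, most of them CXC ligands, and 9 on chromosome 9, all of them receptors. Promoter sequence was available for 34 of the 47 members (RefSeq, GRCm38.p6). The 250 bases before the transcript start are shown for Cxcl12, Cxcr4, Ccl9 and Ccr2, because both diabetic arrays lay above both normoglycemic arrays for these genes. Ccl5, which shared that pattern, is named only. Capitals mark matches, on either strand, to the motifs searched. These were the NF-kB site (GGGA and TTTCC with any 1 base between them), the core of the interferon response element (GAAA and GAAA with any 2 bases between them), the STAT site TTCNNNGAA, the TATA box TATAAA and the PU.1 site GAGGAAGT.
Cxcl12, chr6:117168285-117168534, plus strand: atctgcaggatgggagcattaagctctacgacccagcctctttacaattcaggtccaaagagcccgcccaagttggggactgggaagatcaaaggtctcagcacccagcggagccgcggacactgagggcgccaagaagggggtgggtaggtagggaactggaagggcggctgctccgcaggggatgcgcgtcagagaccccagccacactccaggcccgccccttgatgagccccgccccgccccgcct
Cxcr4, chr1:128592300-128592549, minus strand: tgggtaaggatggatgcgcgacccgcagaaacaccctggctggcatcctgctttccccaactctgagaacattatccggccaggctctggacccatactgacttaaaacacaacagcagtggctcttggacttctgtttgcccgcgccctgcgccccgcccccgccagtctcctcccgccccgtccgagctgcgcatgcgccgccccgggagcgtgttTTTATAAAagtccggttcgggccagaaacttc
Ccl9, chr11:83578637-83578886, minus strand: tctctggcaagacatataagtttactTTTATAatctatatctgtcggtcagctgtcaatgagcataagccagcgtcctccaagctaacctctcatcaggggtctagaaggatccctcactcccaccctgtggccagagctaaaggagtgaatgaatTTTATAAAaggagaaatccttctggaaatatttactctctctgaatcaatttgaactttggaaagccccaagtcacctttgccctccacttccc
Ccr2, chr9:124101933-124102182, plus strand: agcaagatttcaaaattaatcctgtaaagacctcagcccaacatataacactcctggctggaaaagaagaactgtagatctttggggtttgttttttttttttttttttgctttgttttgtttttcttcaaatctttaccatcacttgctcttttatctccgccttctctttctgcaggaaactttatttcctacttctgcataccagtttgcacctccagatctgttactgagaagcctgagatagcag
The Cxcl12, Cxcr4 and Ccl9 windows end at the annotated start of the gene, and the Ccr2 window lies within the annotated gene, whose longest transcript starts at 124101918. The Cxcl12 and Cxcr4 windows were 64.4% and 61.2% G and C, against 43.6% for Ccl9 and 37.2% for Ccr2. The letters TATAAA stood 30 bases before the start of Cxcr4 and 92 bases before that of Ccl9, each overlapped by a match on the opposite strand, and Ccl9 held a further match at 224 bases. No motif letters were found in the Cxcl12 and Ccr2 windows. Over the 34 promoters, TATAAA was found in 9, against 12.4% of all 32851 promoters of this length. The NF-kB letters were found in those of Cxcl1, Cxcl2, Cxcl3 and Ccr3, against 0.356% of all promoters, and the interferon core in those of Cxcl10 and Cxcl14, against 2.98%. The STAT letters were in 3 member promoters, against 7.02% of all, and the PU.1 letters in 1, that of Cxcr3, against 2.44%.

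All values below are the deposited MAS5 signals, which are intensities on a linear scale, and differences are taken on log2(signal + 74). Adipocyte markers checked the tissue: all 8 of those measured were above the filter, and the lowest summed signal of an array was 189617. Fabp4 alone read from 85600 to 339475, so the sums say little of dimmer markers. Lep read 2252 and 63.1 on the AAT-treated arrays, 18.7 and 9408 on the diabetic arrays and 255 and 1299 on the normoglycemic arrays, a wide spread within groups. The ratios of 3' to 5' signal were read as signs of RNA quality. That of beta-actin was 9.08 and 5.87 on the AAT-treated arrays, 15.2 and 15.5 on the diabetic arrays, and 3.63 and 4.30 on the normoglycemic arrays, with no overlap between groups. That of GAPDH was 2.31 and 0.790 on the AAT-treated arrays, 2.46 and 4.63 on the diabetic arrays, and 0.910 and 0.946 on the normoglycemic arrays, so that it was highest on the diabetic arrays but did not part AAT-treated from normoglycemic arrays. The spiked hybridisation controls stood highest on AAT-treated array 2, with a mean of 86286, and on normoglycemic array 1, with 128547, against 25159 to 48494 on the other 4 arrays. Over all genes above the filter the arrays did not sort by group. The 2 normoglycemic arrays correlated at 0.837 (Pearson), the AAT-treated arrays at 0.860 and the diabetic arrays at 0.908. Normoglycemic array 2 correlated at 0.931 with AAT-treated array 1 and at 0.898 with each diabetic array. Bulk RNA cannot tell fewer cells of a type from less RNA per cell.

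**Figure D1:**
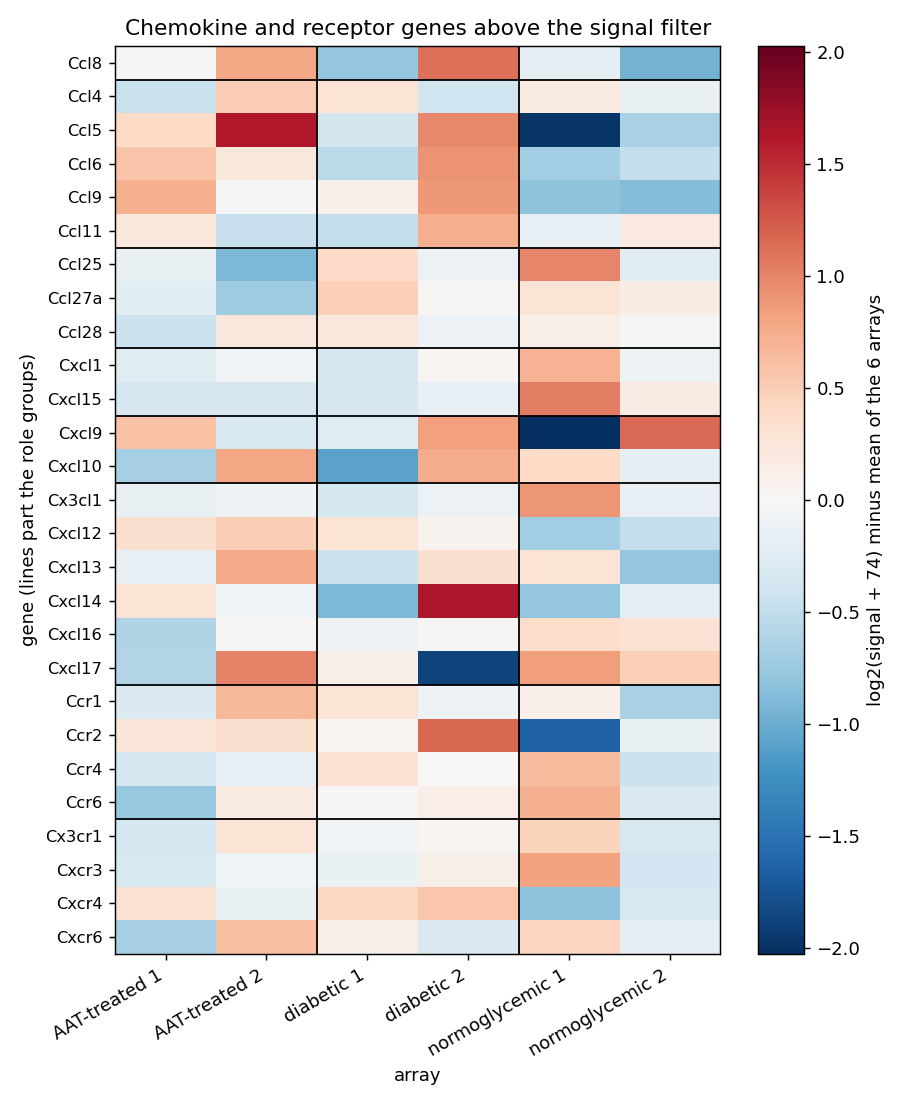
Each row is 1 of the 27 genes above the filter and each column 1 array, with colour giving log2(signal + 74) minus that gene's mean over the 6 arrays, and black lines parting the role groups and the 3 groups of mice. Rows for Ccl5, Ccl9, Cxcl12 and Cxcr4 are blue on both normoglycemic arrays, while the highest value of a gene fell on AAT-treated array 2 for 9 genes, on normoglycemic array 1 for 9 and on diabetic array 2 for 7.

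Ccl5 (RANTES), a ligand of CCR1 and CCR3 that T cells and other leukocytes release, was lowest in normoglycemic fat. Its signal was 579.5 and 1444 on the AAT-treated arrays, 308 and 887 on the diabetic arrays and 50.1 and 239 on the normoglycemic arrays. Both normoglycemic arrays were the lowest of the 6, normoglycemic array 1 far below the other, and the AAT-treated and diabetic arrays overlapped. Of the 12 T cell markers, 9 were measured and 3 passed the filter, and Cd3d, Cd3e, Cd3g, Cd2, Cd4 and Cd8b1 were under it. The summed signal of the 9 T cell markers was 1649 and 2235 on the AAT-treated arrays, 716 and 1405 on the diabetic arrays and 1728 and 868 on the normoglycemic arrays, and these ranges overlap in every pair of groups except AAT-treated and diabetic.

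Ccl9 and Ccl6, related mouse CC ligands that act on CCR1 in mice and are made by myeloid cells, had high signals in every group. Ccl9 read 3154 and 1846 on the AAT-treated arrays, 2036 and 3526 on the diabetic arrays and 1044 and 995 on the normoglycemic arrays. Ccl6 read 3141 and 2454 on the AAT-treated arrays, 1403 and 3972 on the diabetic arrays and 1239 and 1466 on the normoglycemic arrays. For Ccl9 both normoglycemic arrays lay close together below the other 4, while for Ccl6 diabetic array 1 fell between the normoglycemic values. Ccl11 (eotaxin), which attracts eosinophils through CCR3, read 1456 and 887 on the AAT-treated arrays, 859.8 and 2123 on the diabetic arrays and 1109 and 1441 on the normoglycemic arrays, with overlap between all groups. Ccl4 (MIP-1 beta, a ligand made by activated leukocytes) ran between 324 and 702 with no order by group.

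The genes grouped as ligands of CCR2 were mostly dim. Ccl2 (MCP-1), the principal monocyte attractant, was under the filter at 24.7 and 230.0 on the AAT-treated arrays, 9.29 and 165 on the diabetic arrays and 200.01 and 257 on the normoglycemic arrays. Its normoglycemic arrays were above both diabetic arrays, and each of the other groups held 1 very low array. Ccl7 and Ccl12 were under the filter as well. Ccl8 (MCP-2), listed in this group without a check of its receptor in mice, was the only gene of the group above the filter. It read 1159 and 2017 on the AAT-treated arrays, 631 and 2559.7 on the diabetic arrays and 981 and 546 on the normoglycemic arrays. Both AAT-treated arrays exceeded both normoglycemic arrays, and the diabetic arrays held the highest value of the 6 and the lowest but 1.

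Ccr2, the receptor of Ccl2 on inflammatory monocytes, read 307 and 329 on the AAT-treated arrays, 256 and 644 on the diabetic arrays and 29.7 and 217 on the normoglycemic arrays. Both normoglycemic arrays were the lowest, with normoglycemic array 1 nearly dark. Among the other CC receptors above the filter, Ccr1 ran from 85.7 to 326 and Ccr6, a receptor of lymphocytes and dendritic cells, from 198 to 687, without separation of any pair of groups. Ccr4, a receptor of T helper 2 and regulatory T cells, read 124 and 152 on the AAT-treated arrays, 235 and 180.3 on the diabetic arrays and 317 and 113 on the normoglycemic arrays, and the AAT-treated arrays were both below the diabetic arrays.

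Cxcl12 (SDF-1), the stromal ligand of CXCR4, had replicates that lay close together. It read 3223 and 3643 on the AAT-treated arrays, 3129.7 and 2687 on the diabetic arrays and 1549 and 1807 on the normoglycemic arrays, so that no 2 groups overlapped. Its receptor Cxcr4, carried by lymphocytes, progenitors and many myeloid cells, read 334 and 227 on the AAT-treated arrays, 367 and 416 on the diabetic arrays and 112 and 189.7 on the normoglycemic arrays. No 2 groups overlapped for Cxcr4 either, but here the diabetic arrays were the highest.

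Cxcl13, which draws B cells through CXCR5, read 553 and 1125 on the AAT-treated arrays, 447 and 808 on the diabetic arrays and 775 and 335 on the normoglycemic arrays. All 3 groups overlapped. A second Cxcl13 probe set, nearly as bright, read 349 and 1386 on the AAT-treated arrays, 426 and 347 on the diabetic arrays and 865 and 477 on the normoglycemic arrays, and there both diabetic arrays were below both normoglycemic arrays. Diabetic minus normoglycemic came to 0.20 on the first and -0.65 on the second. Its receptor Cxcr5 was under the filter. The 7 measured B cell markers, of which 4 passed the filter and Cd79a, Cd79b and Cr2 did not, summed to 20453 and 5854 on the AAT-treated arrays, 1449 and 3025 on the diabetic arrays and 2744 and 1688 on the normoglycemic arrays. Ighm, the immunoglobulin mu chain, made up most of the AAT-treated sums at 19419 and 3925, against 301 and 1738 on the diabetic and 153 and 315 on the normoglycemic arrays.

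The CXCR3 ligands Cxcl9 and Cxcl10, induced by interferon-gamma and drawing activated T cells, varied within groups as widely as between them. Cxcl9 read 1447 and 745 on the AAT-treated arrays, 780.4 and 1718 on the diabetic arrays and 174 and 2171 on the normoglycemic arrays, which held both the lowest and the highest value. Cxcl10 read 82.3 and 357 on the AAT-treated arrays, 43.9 and 347 on the diabetic arrays and 258 and 146 on the normoglycemic arrays. In each of the AAT-treated and diabetic groups array 1 was low and array 2 high for Cxcl10, and Cxcl11 was under the filter. Cxcr3 itself ran from 368 to 951, with its highest and lowest value both on normoglycemic arrays.

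Cxcl14, a ligand of epithelial and stromal cells, read 934 and 722 on the AAT-treated arrays, 368 and 2514 on the diabetic arrays and 409 and 658 on the normoglycemic arrays. Diabetic array 2 stood far above the other 5, and both AAT-treated arrays were above the normoglycemic ones. Cxcl16, the transmembrane ligand of CXCR6, was highest in the normoglycemic group on the probe set used. It read 384 and 636 on the AAT-treated arrays, 579.9 and 637 on the diabetic arrays and 835 and 788 on the normoglycemic arrays. A second Cxcl16 probe set, given below, turned the order of diabetic and normoglycemic fat. Cxcl17, an attractant of mucosal tissues, read 168 and 653 on the AAT-treated arrays, 321 and 25.5 on the diabetic arrays and 579 and 435 on the normoglycemic arrays. The diabetic arrays were both below the normoglycemic ones, diabetic array 2 by a wide margin, and the AAT-treated arrays held the highest value of the 6 and 1 value below both normoglycemic arrays. Cx3cl1 (fractalkine) read between 244 and 685 and its receptor Cx3cr1 between 116 and 259, both highest on normoglycemic array 1.

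Of the neutrophil-directed CXCR2 ligands, Cxcl1 (KC) and Cxcl15 (lungkine) passed the filter and Cxcl2, Cxcl3 and Cxcl5 did not, nor did the receptor Cxcr2. Cxcl1 read 486 and 568 on the AAT-treated arrays, 449 and 609.6 on the diabetic arrays and 1011 and 546 on the normoglycemic arrays, with normoglycemic array 1 alone above the rest. Cxcl15 read 148 and 147 on the AAT-treated arrays, 146 and 175 on the diabetic arrays and 499.6 and 239.6 on the normoglycemic arrays, both of which were above the other 4. Ccl27a, the skin-homing ligand of CCR10, and Ccl25, the thymic and gut ligand of CCR9, were lower on both AAT-treated arrays than on both diabetic arrays. Ccl27a read 274 and 169 on the AAT-treated arrays, 485 and 335 on the diabetic arrays and 413 and 374 on the normoglycemic arrays. On the first probe set that Ccl27a shares with Ccl27b, given in the last section, AAT-treated and diabetic arrays overlapped. On the second they did not. Ccl25 read 235 and 108 on the AAT-treated arrays, 374 and 241 on the diabetic arrays and 606 and 223 on the normoglycemic arrays, where array 1 was far above array 2.

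**Figure D2:**
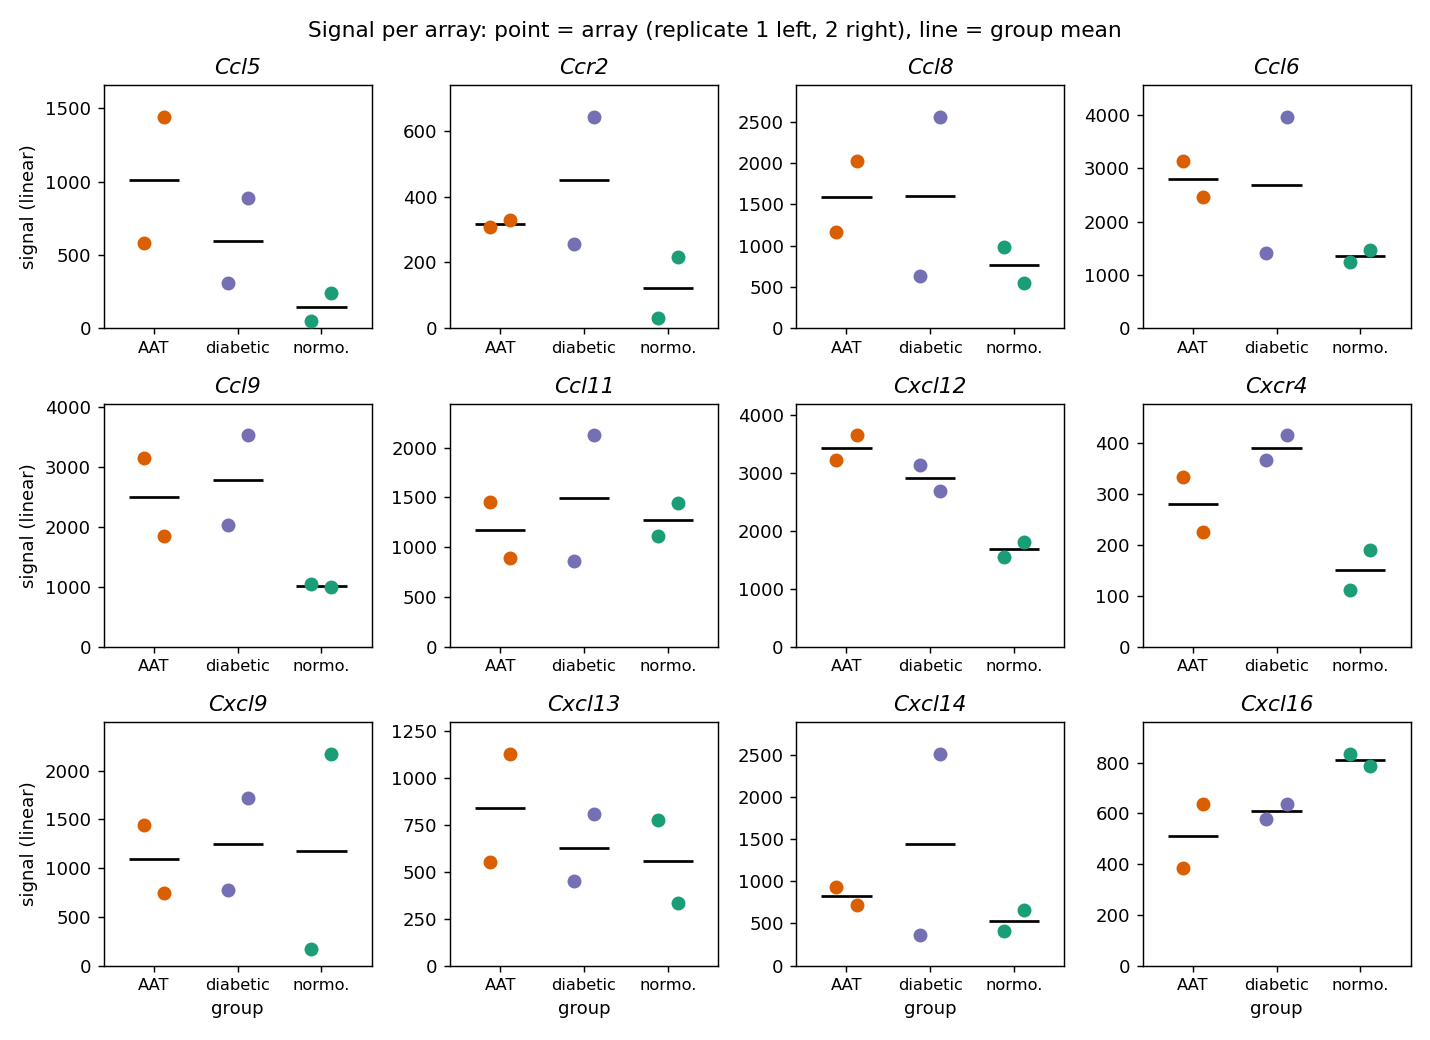
Each panel shows 1 gene, with the deposited linear signal on the y axis, the groups AAT-treated (AAT), diabetic and normoglycemic (normo.) from left to right, a point per array and a line at the mean of the 2 arrays. Cxcl12 and Cxcr4 have no overlap between any 2 groups, Ccl5 and Ccl9 lie lowest on the normoglycemic arrays, and for Cxcl9 the normoglycemic points at 174 and 2171 span the whole range.

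Diabetic fat had higher signals than normoglycemic fat for Ccl5, Ccr2, Ccl9, Cxcr4 and Cxcl12, and lower ones for Cxcl17, Cxcl15 and Cxcl16, but none of the differences passed the test. With limma and Benjamini-Hochberg adjustment over 13043 genes, 0 of the 27 members had an adjusted p under 0.05, against 0.0% of all genes. The members' adjusted p ran from 0.467 for Ccl9 to 0.998, and the lowest of any gene was 0.244. At an unadjusted p under 0.05 there were 5 members, all with the higher signal in diabetic fat, which is 18.5% of the members against 9.9% of all genes, or 5.27% of all genes in that direction. The same 5 were those with both diabetic arrays above both normoglycemic arrays, 18.5% against 20.2% of all genes, and the 3 with both below came to 11.1% against 24.5%. The median log2 difference of the 27 was 0.03, against -0.06 for all genes, and 14 were positive, 51.9% against 46.4%.

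By size, Ccl5 averaged 597 ± 409 in diabetic and 145 ± 134 in normoglycemic fat (SD, n = 2 each), a log2 difference of 1.62 ± 0.64 (SE). It was 0.95 without normoglycemic array 1 and 0.95 without diabetic array 2. Ccr2 differed by 1.49 ± 0.61, and by 0.74 without normoglycemic array 1 or 0.93 without diabetic array 2. Its second probe set had the opposite sign, -0.88 with groups that did not overlap, and the mean of both gave 0.30. Ccl9 averaged 2781 ± 1053 in diabetic and 1019 ± 34.4 in normoglycemic fat (SD, n = 2 each), a difference of 1.33 ± 0.39, or 0.74 over its 2 probe sets above the filter. The second of these alone gave 0.15, with groups that overlapped. The ligand and receptor pair Cxcl12 and Cxcr4 differed by 0.77 ± 0.30 and 1.07 ± 0.43, with 0.66 to 0.87 and 0.82 to 1.32 when single arrays were left out. The second Cxcl12 probe set gave -0.28, and the mean of both 0.24. On the lower side, Cxcl17 differed by -1.54 ± 0.73, but by -0.54 without diabetic array 2 and -2.53 without diabetic array 1. Cxcl15 differed by -0.86 ± 0.49, but by -0.42 without normoglycemic array 1 and -1.29 without normoglycemic array 2, and Cxcl16 by -0.38 ± 0.34. The direction of Cxcl16 turned on its second probe set, which gave 1.54 with both diabetic arrays above both normoglycemic arrays, and over both probe sets the difference was 0.58. Without both arrays with bright hybridisation controls, Ccl5 differed by 0.95, Ccr2 by 0.74, Ccl9 by 1.37, Cxcl12 by 0.66 and Cxcr4 by 0.82. These are the same differences as without normoglycemic array 1 alone, since AAT-treated array 2 has no part in this comparison.

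Macrophage markers had higher signals in diabetic fat too. All 12 were above the filter, 10 had a positive difference with a median of 1.04, and their summed signal was 19761 and 34544 on the diabetic against 10047 and 9618 on the normoglycemic arrays. The 7 fibroblast markers, 6 of them positive with a median of 0.94, summed to 43275 and 73494 on the diabetic against 38636 and 35848 on the normoglycemic arrays. None of these markers passed the adjusted threshold. Of the 8 endothelial markers 7 were positive with a median of 0.58. Their sums were 15257 and 9474 on the diabetic and 2721 and 23374 on the normoglycemic arrays, so the groups overlapped. The part of macrophages, fibroblasts, endothelium or the beta-actin ratio in the differences of Ccl9, Ccr2, Ccl5 and Cxcl12 was not tested. Both CXCR2 ligands above the filter had a negative difference, but Cxcl15 passed the filter only through its normoglycemic signal. The 4 CXC and CX3C receptors had a median of -0.15.

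No member passed the test between AAT-treated and diabetic fat. Of the 27, 0 had an adjusted p under 0.05, against 0.0% of all genes, and 0 had an unadjusted p under 0.05, against 4.77% of all genes (2.94% with the higher signal in AAT-treated fat). The adjusted p of the members lay between 0.962, for Ccl27a, and 1.0, while the lowest of any gene was 0.0749. Cxcl12 was the 1 member with both AAT-treated arrays above both diabetic arrays, 3.7% of the members against 17.9% of all genes. Ccl25, Ccl27a, Ccr4 and Cxcr4 were below, 14.8% against 15.9%. The members' median difference was -0.08 against 0.01 for all genes, and 12 were positive, 44.4% against 51.2%. This comparison shares the diabetic arrays with the one before, so the 2 are not independent.

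Ccl27a averaged 221 ± 74.1 in AAT-treated and 410.0 ± 107 in diabetic fat (SD, n = 2 each), a log2 difference of -0.72 ± 0.39, and -0.46 without AAT-treated array 2. Ccl25 differed by -0.66 ± 0.53, but by -0.28 without AAT-treated array 2 and -1.04 without AAT-treated array 1. Cxcr4 differed by -0.41 ± 0.43, but by -0.19 without AAT-treated array 2 and -0.63 without AAT-treated array 1. Ccr4 differed by -0.41 ± 0.54, but by -0.27 without diabetic array 1, and Cxcl12 by 0.24 ± 0.30, but by 0.13 without diabetic array 2. The members Ccl5, Ccr2 and Cxcl13 overlapped between the groups, with differences of 0.72 ± 0.64, -0.31 ± 0.61 and 0.35 ± 0.49. With single arrays left out these ran from 0.05 to 1.38, -0.87 to 0.25 and -0.11 to 0.82. Ccl9, Ccl6 and Ccl8, which stood higher in AAT-treated than in normoglycemic fat, differed from diabetic fat by -0.15 ± 0.39, 0.22 ± 0.47 and 0.24 ± 0.61, all within their standard error. Their sign turned with single arrays, over ranges of -0.53 to 0.24, -0.50 to 0.95 and -0.71 to 1.19, so that no direction can be given for these 3 genes. Macrophage markers were lower in AAT-treated than in diabetic fat for 8 of the 12, with a median of -0.44 and sums of 22283 and 12819 on the AAT-treated arrays, which overlap the diabetic range.

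AAT-treated fat had higher signals than normoglycemic fat for Ccl5, Ccl9, Ccr2, Ccl6, Cxcl12, Ccl8, Cxcr4 and Cxcl14 and lower ones for Cxcl15, Ccl27a and Cxcl16, again without a member past the threshold. The normoglycemic arrays are those of the diabetic comparison as well. With limma, 0 of 27 had an adjusted p under 0.05, against 0.0% of all genes, and 3 (Ccl5, Ccl9 and Cxcl12) had an unadjusted p under 0.05, 11.1% against 5.13%, all in the direction that 3.41% of all genes took. Both AAT-treated arrays were above both normoglycemic arrays for 8 members, 29.6% against 16% of all genes, and below for 3, 11.1% against 16.1%. The adjusted p ran from 0.869 for Ccl5 to 0.996, with 0.788 the lowest of any gene. The members' median was -0.11 against -0.03 for all genes, with 12 positive, 44.4% against 48%.

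Ccl5 averaged 1012 ± 611 in AAT-treated and 145 ± 134 in normoglycemic fat (SD, n = 2 each), a log2 difference of 2.34 ± 0.64. It was 1.67 without normoglycemic array 1 and 1.06 without both arrays with bright hybridisation controls. Cxcl12 averaged 3433 ± 297 in AAT-treated and 1678 ± 183 in normoglycemic fat (SD, n = 2 each), a difference of 1.003 ± 0.304 that ran from 0.90 to 1.11 when single arrays were left out. Its second probe set gave -0.15, and the mean of both 0.42. Ccl9 differed by 1.19 ± 0.39 and Ccl6 by 1.003 ± 0.470. The second Ccl9 probe set gave 0.90 with groups that overlapped, and the second Ccl6 probe set 0.87 with groups that did not. Ccr2 differed by 1.17 ± 0.61, but by 0.43 without normoglycemic array 1 and 1.92 without normoglycemic array 2, and its second probe set gave -0.18, for a mean over both of 0.50. Ccl8 differed by 0.99 ± 0.61, but by 0.61 without AAT-treated array 2 and 0.61 without normoglycemic array 2. Cxcr4 differed by 0.66 ± 0.43, but by 0.41 without normoglycemic array 1. Cxcl14 differed by 0.59 ± 0.71, but by 0.29 without normoglycemic array 1 and 0.89 without normoglycemic array 2, and by 1.07 over both its probe sets. Cxcl15 differed by -0.94 ± 0.49, but by -0.50 without normoglycemic array 1, Ccl27a by -0.68 ± 0.39, but by -0.43 without AAT-treated array 2, and Cxcl16 by -0.63 ± 0.34, but by -0.32 without AAT-treated array 1. Over both its probe sets Cxcl16 came to 0.015, which is near 0 and of the opposite sign. Of the macrophage markers 10 of 12 were positive with a median of 0.63, and all 7 fibroblast markers were positive with a median of 0.59 and sums of 62869 and 57953 on the AAT-treated arrays against 38636 and 35848 on the normoglycemic arrays. All 6 mesothelium markers were positive too, with a median of 0.80, and all 8 adipocyte markers were negative, with a median of -0.48. The part of these cell types in these differences was not tested.

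**Figure D3:**
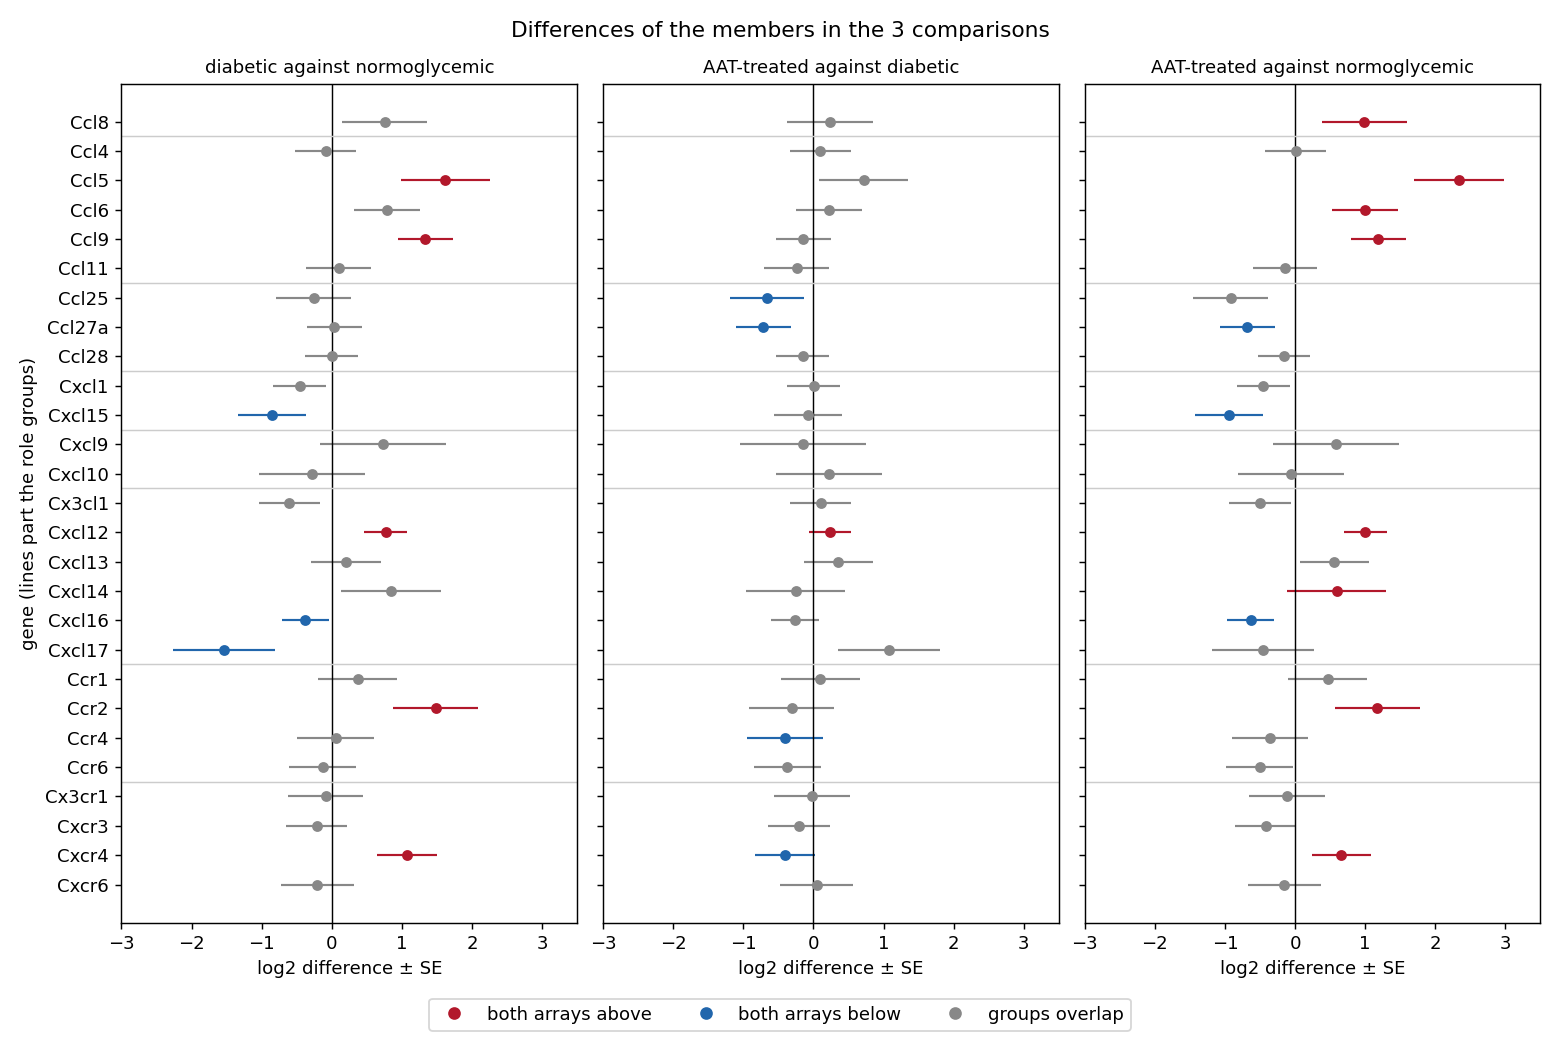
Points are the log2 differences of the 27 genes above the filter and bars their SE from limma, with 1 panel per comparison as titled, red where both arrays of the group named first lay above both of the other, and blue where both lay below. Ccl5 is the farthest to the right in the outer panels, at 1.62 and 2.34, and no member had an adjusted p under 0.05 in any panel.

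Several members had a further probe set, and these did not always tell the same story. Among the 27, 9 genes had 1 other probe set above the filter, and its difference had the opposite sign for 4 of them in diabetic against normoglycemic fat, for 3 in AAT-treated against diabetic fat and for 4 in AAT-treated against normoglycemic fat. The second Cxcl12 probe set read 3919 and 494 on the AAT-treated arrays, 1598 and 1061 on the diabetic arrays and 686 and 3617 on the normoglycemic arrays, so all groups overlapped. The second Ccr2 probe set read 194 and 369.9 on the AAT-treated arrays, 272 and 57.1 on the diabetic arrays and 356 and 283 on the normoglycemic arrays, with the diabetic arrays below the normoglycemic ones. For Cxcl16 the second probe set read 422 and 184 on the AAT-treated arrays, 535 and 630.1 on the diabetic arrays and 92.2 and 232 on the normoglycemic arrays, which turns the order of diabetic and normoglycemic fat. For Ccl6 it kept the order of the arrays in part, at 1977 and 1290 on the AAT-treated arrays, 909.5 and 2563 on the diabetic arrays and 1035 and 680.3 on the normoglycemic arrays. The second Ccl9 probe set read 393 and 720 on the AAT-treated, 162 and 487 on the diabetic and 449 and 131 on the normoglycemic arrays, so all groups overlapped. In AAT-treated against diabetic fat the signs differed for Ccl9, Ccr2 and Cxcl14, and in AAT-treated against normoglycemic fat for Ccr2, Cxcl1, Cxcl12 and Cxcl16. Ccl5 and Cxcr4 rest on 1 probe set above the filter.

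**Figure D4:**
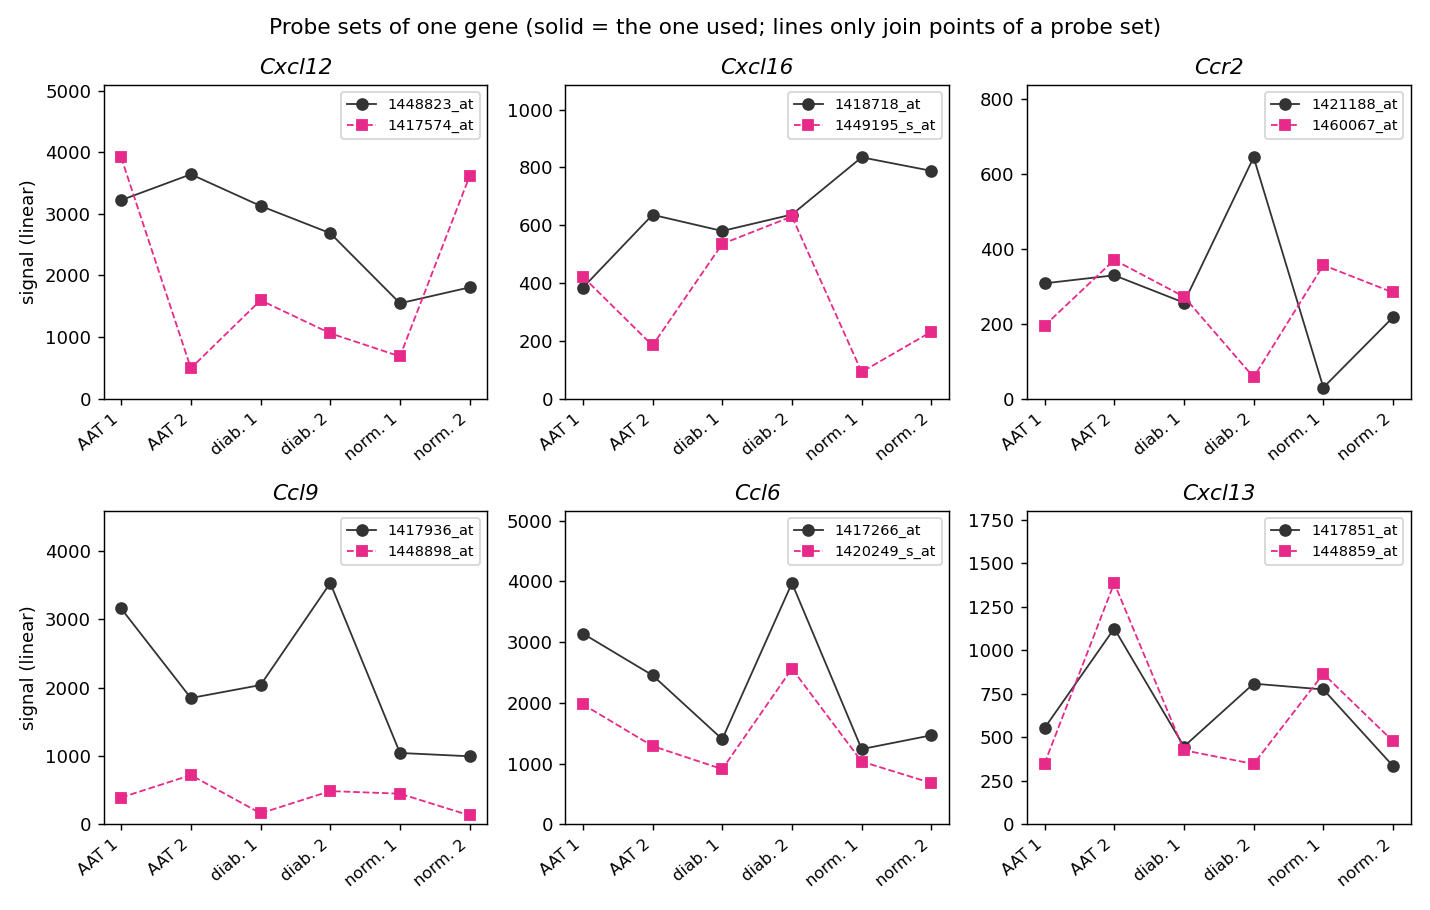
Each panel plots the linear signal of 2 probe sets of 1 gene over the 6 arrays, in the order AAT-treated (AAT), diabetic (diab.) and normoglycemic (norm.), with the one used as a solid line and the lines only joining points. Both probe sets of Ccl6 are highest on diabetic array 2 and next on AAT-treated array 1, but order the normoglycemic arrays oppositely, while the second of Cxcl12 is low on AAT-treated array 2 and high on normoglycemic array 2, where it read 494 and 3617.

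The 20 members under the filter are Ccl1, Ccl2, Ccl3, Ccl7, Ccl12, Ccl17, Ccl20, Ccl22, Ccl24, Cxcl2, Cxcl3, Cxcl5, Cxcl11 and the receptors Ccr3, Ccr7, Ccr8, Ccr9, Ccr10, Cxcr2 and Cxcr5. They include Ccr7, which guides dendritic cells and naive T cells into lymph nodes, at 6.68 and 7.21 on the AAT-treated arrays, 13.0 and 8.90 on the diabetic arrays and 10.9 and 55.8 on the normoglycemic arrays. The filter ran between Cx3cr1, with a mean signal of 174, and Ccl17, with 153. In a fit without the filter, both diabetic arrays were above both normoglycemic arrays for 2 of the 20, against 17.5% of all 18193 genes, and below for 5 (Ccl1, Ccl2, Ccl3, Ccr10 and Cxcr5), against 23.9%. These shares and those that follow cover all genes, of which 13043 passed the filter. They are therefore not shares of genes as dim as the 20, and no excess or lack can be read from them. Ccl2 differed by -1.10 ± 0.68 in diabetic against normoglycemic fat, with an adjusted p of 0.674 from limma, by 0.30 ± 0.68 in AAT-treated against diabetic fat and by -0.80 ± 0.68 in AAT-treated against normoglycemic fat. Each of these rests on single arrays, since the first was -0.34 without diabetic array 1 and -1.86 without diabetic array 2, the second ran from -0.51 to 1.11 and the third from -1.610 to 0.013 with single arrays left out. AAT-treated arrays were both above the diabetic ones for Ccl1 and Cxcl11, 2 of 20 against 16.3% of all genes, and both below for Ccl7, Ccr3 and Ccr7, 3 of 20 against 16%. Against normoglycemic arrays they were above for Ccl22, 1 of 20 against 14.1%, and below for Ccl3, Ccl7, Ccr7, Ccr9, Ccr10 and Cxcr5, 6 of 20 against 17.6%. Of the 20 genes, 11 had their highest value on normoglycemic array 1, the array with the brightest hybridisation controls. The median signal of the 20 was 153 there, against 33.4 to 112 on the other arrays. The median of all probe sets was highest on that array too, at 272, against 176 to 244 on the others. The matching share of all genes under the filter was not computed.

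**Figure D5:**
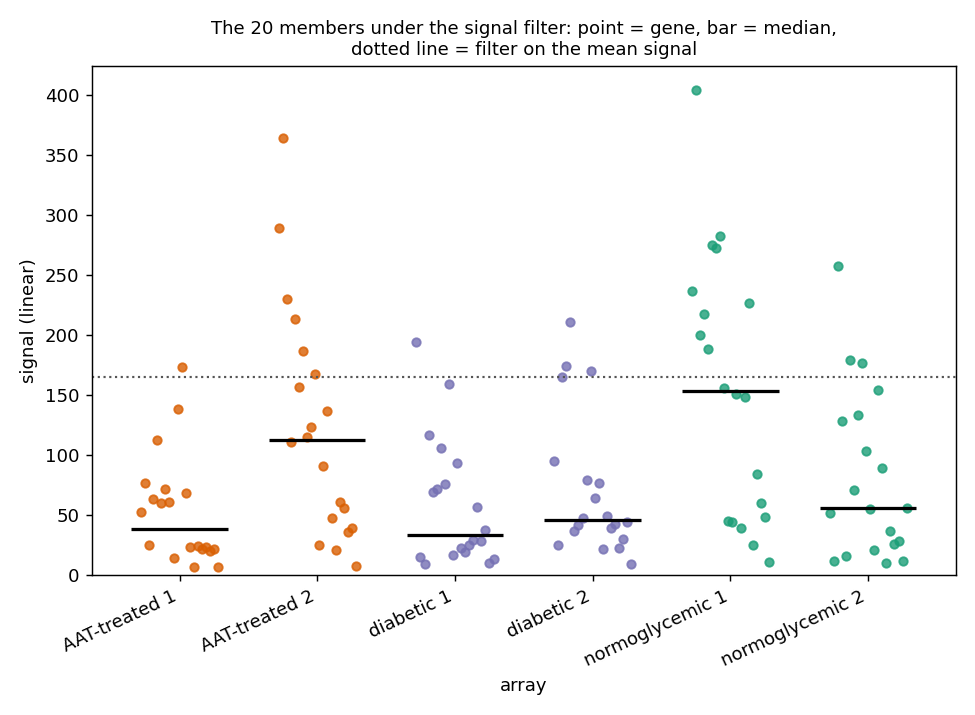
Each point is 1 of the 20 genes under the filter on 1 array, with the deposited linear signal on the y axis, a bar at the median and a dotted line at the filter of 164 on the mean over arrays. The median is highest on normoglycemic array 1, at 153, and next on AAT-treated array 2, at 112.

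The other parts of the chemokine system were read from lists of genes outside the symbol rule, and in none of the lists did a gene pass the adjusted threshold in any comparison. Of the 13 atypical receptors and chemokine-like ligands, 12 were above the filter. Ppbp (CXCL7), a platelet chemokine, read 666 and 573 on the AAT-treated arrays, 174 and 31.0 on the diabetic arrays and 2237 and 1362 on the normoglycemic arrays. No 2 groups overlapped, and diabetic against normoglycemic fat differed by -3.50 ± 0.47, with the lowest adjusted p of any gene in that comparison, 0.244 by limma. AAT-treated fat differed from diabetic fat by 2.10 ± 0.47 and from normoglycemic fat by -1.40 ± 0.47. The 6 measured red cell and platelet markers, all above the filter, summed to 9628 and 3121 on the AAT-treated arrays, 2244 and 2411 on the diabetic arrays and 5878 and 10473 on the normoglycemic arrays, and all 6 had a negative difference in diabetic against normoglycemic fat. Their part in the Ppbp difference was not tested. Ackr1, the decoy receptor of venules and red cells, read 1710.0 and 816 on the AAT-treated arrays, 684 and 764 on the diabetic arrays and 809 and 596 on the normoglycemic arrays.

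Of the 24 genes of receptor signalling, 20 were above the filter, with 11 positive in diabetic against normoglycemic fat, 9 positive in AAT-treated against diabetic fat and 13 positive in AAT-treated against normoglycemic fat. In diabetic against normoglycemic fat, 1 of the 20 was higher and 2 were lower at an unadjusted limma p under 0.05. The share of all genes in either direction was 9.9%. Arrb2, the beta-arrestin that ends receptor signalling, read 962 and 952 on the AAT-treated arrays, 1133 and 1764 on the diabetic arrays and 692 and 670.2 on the normoglycemic arrays, a difference of 0.98 ± 0.33 between diabetic and normoglycemic fat. Rac1, the GTPase that drives the leading edge of moving cells, was lowest in the diabetic group, with 6217 and 7177 on the AAT-treated arrays, 2977 and 3299.9 on the diabetic arrays and 4824 and 6862 on the normoglycemic arrays. It differed by 1.07 ± 0.33 in AAT-treated against diabetic fat. All 7 regulators of G protein signalling were measured. Of these, 3 were positive in diabetic against normoglycemic fat, 4 in AAT-treated against diabetic fat and 3 in AAT-treated against normoglycemic fat. Their medians were -0.71, 0.36 and -0.30 in that order, so Rgs1 went against the list in both comparisons with normoglycemic fat. Rgs1, which dampens chemokine responses of lymphocytes, read 380.2 and 313 on the AAT-treated arrays, 196 and 212 on the diabetic arrays and 153 and 59.6 on the normoglycemic arrays, and differed by 1.27 ± 0.48 in AAT-treated against normoglycemic fat.

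Among 22 inducers of chemokine transcription, 15 were above the filter and the cytokines Tnf, Il6, Ifng, Il13 and Lta were under it. The counts of positive differences were 8 of 15 in diabetic against normoglycemic fat, 12 in AAT-treated against diabetic fat and 10 in AAT-treated against normoglycemic fat. Ltb, the lymphotoxin beta that organises lymphoid stroma, read 277 and 322 on the AAT-treated arrays, 142 and 368 on the diabetic arrays and 13.7 and 41.6 on the normoglycemic arrays. Nfkb2, the subunit of the noncanonical NF-kB pathway that lymphotoxin engages, read 438 and 856 on the AAT-treated arrays, 448 and 363 on the diabetic arrays and 71.2 and 326 on the normoglycemic arrays. Both were lowest on the normoglycemic arrays, with AAT-treated minus normoglycemic differences of 1.89 ± 0.58 for Ltb and 1.52 ± 0.54 for Nfkb2 and diabetic minus normoglycemic differences of 1.62 ± 0.58 and 0.99 ± 0.54. Without normoglycemic array 1 the Nfkb2 differences were 0.79 and 0.26, and the first was 0.36 without both arrays with bright hybridisation controls. With a pseudocount of 8 in place of 74 the Ltb differences were 3.22 and 2.85. Of the 13 adhesion molecules of leukocyte arrest, 10 were above the filter, with 9 positive in diabetic against normoglycemic fat, 4 in AAT-treated against diabetic fat and 7 in AAT-treated against normoglycemic fat. Selplg, the selectin ligand on leukocytes, read 345 and 436 on the AAT-treated arrays, 268 and 591 on the diabetic arrays and 97.4 and 127 on the normoglycemic arrays, which were the 2 lowest.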

How the data were processed

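Fat RNA was measured on 6 arrays, grouped by the sample titles, 2 per group. The authors deposited intensities for 45101 probe sets, and the submitters' processing notes name MAS5 as the tool that made them, with no version. MAS5 removes background and mismatch signal and multiplies each array by a constant. Every array had a mean of 500.0 once 2% of its values were trimmed at either end, and this scaling was kept. The few arrays limit the precision of every value.

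Names came from the platform annotation and the RefSeq gene table. Only the 34945 probe sets with 1 symbol were used, not the 932 with several or the 9160 without one. The brightest probe set by mean stood for a gene, and 13043 genes had a mean above 164. Values were taken as log2(signal + 74), the pseudocount being the 25th percentile of all signals, so differences of dim genes are understated. limma 3.58.1 in R 4.3.3 fitted the 3 group means to the 6 arrays together (eBayes with an intensity trend, 2-sided, 3 residual degrees of freedom), with Benjamini-Hochberg adjustment within a comparison and a threshold of 0.05. With 2 arrays against 2, an exact permutation test could reach a p of 0.333 at the lowest and was not run. Alternatives changed the pseudocount, filter, normalization, probe set, variance model and arrays used.

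The members, gene lists and tests were chosen with earlier results of these data known, so no list was tested. Values on every array are given for Ccl2, Ccl5, Cxcl13 and Ccr2, for the 10 members with the highest mean signal and, per comparison, for up to 5 members in each direction whose groups did not overlap. From other lists, genes with the 4 smallest unadjusted p in a comparison could be named. Cxcl10, Ccr7 and the second probe sets were chosen after their values were seen.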

Additional observations from a re-analysis of the deposited data

How the results depend on the processing

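Of the differences given in the text, 43 were recomputed under up to 16 alternatives (for Ccl2, which is under the filter, by leaving out arrays). This gave 648 values, of which 629 kept the direction of the reported value. None with a test had an adjusted p under 0.05. For genes outside the family these alternatives were added after seeing the data. The count of 629 says little by itself. Changes of the filter, the variance model, the replicate block or the arrays of the third group cannot move a difference. Where 2 groups do not overlap, leaving out 1 array cannot turn the sign. The Cxcl13 difference between diabetic and normoglycemic fat, whose second probe set had the opposite sign, was not among the 43. The 19 values that changed direction are covered by the values and ranges that follow. When all probe sets of a gene above the filter were averaged, Cxcl16 came to 0.58 in diabetic against normoglycemic and 0.015 in AAT-treated against normoglycemic fat, and Ccr2 and Ccl9 to 0.19 and 0.30 in AAT-treated against diabetic fat. With arrays left out, AAT-treated against diabetic fat ran from -0.87 to 0.25 for Ccr2, -0.11 to 0.82 for Cxcl13, -0.53 to 0.24 for Ccl9, -0.50 to 0.95 for Ccl6, -0.71 to 1.19 for Ccl8 and -0.51 to 1.11 for Ccl2, and AAT-treated against normoglycemic fat from -1.610 to 0.013 for Ccl2. Without both arrays with bright hybridisation controls, the first of these comparisons came to -0.11 for Cxcl13, 0.23 for Ccl9, -0.14 for Ccl8 and -0.51 for Ccl2. These repeat the differences without AAT-treated array 2 alone, since normoglycemic array 1 has no part in that comparison. The members' median moved by more than its SD between replicates, 0.256, only with the arrays used. In diabetic against normoglycemic fat the members' median ran from -0.24 without normoglycemic array 2 to 0.34 without normoglycemic array 1. Leaving out both arrays with bright hybridisation controls gives that same 0.34, since AAT-treated array 2 has no part in this comparison. In AAT-treated against normoglycemic fat it ran from -0.43 without AAT-treated array 2 to 0.33 without AAT-treated array 1, with 0.18 without normoglycemic array 1. The number of genes past the threshold was 0 in the fits as reported. It became 1 (Anp32a, adjusted p = 0.0415) in AAT-treated against diabetic fat with no filter on low values, and in AAT-treated against normoglycemic fat it ran from 0 to 3 when single arrays were left out, with Ephx1, Myh11 and Phf3 (adjusted p = 0.0476 for each) past it without normoglycemic array 2. No member was among them, and the cause was not tested. With 1 array left in a group, that array is assumed to vary like the others.

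The replicate numbers 1 and 2 are shared by the groups, but nothing in the labels pairs the arrays, and same-numbered arrays deviated together with correlations of -0.12 (AAT-treated and diabetic), -0.51 (AAT-treated and normoglycemic) and 0.08 (diabetic and normoglycemic). With the replicate block, 0 genes passed the threshold in each comparison and the members' medians were unchanged, since the design is balanced. Low signal over background limits what can be said of the 20 members under the filter.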

Other observations

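Ligands whose probe sets carry several gene symbols fell outside the family as defined, and their values were looked at afterwards. The probe set shared by the Ccl21 genes, ligands of CCR7 made by lymph node stroma and lymphatic vessels, read 441 and 17.1 on the AAT-treated arrays, 29.5 and 26.1 on the diabetic arrays and 53.2 and 41.0 on the normoglycemic arrays. AAT-treated array 1 stood alone above the rest, and on the same array Ighm read 19419. The probe set that includes Ccl19, the other CCR7 ligand, read 269 and 64.3 on the AAT-treated arrays, 198 and 315 on the diabetic arrays and 27.3 and 36.5 on the normoglycemic arrays, which were the 2 lowest. Ccl27a, a member through another probe set, also shares probe sets with Ccl27b and other symbols. The first read 248 and 378 on the AAT-treated arrays, 395 and 172 on the diabetic arrays and 260 and 157 on the normoglycemic arrays. All groups overlapped there. The second read 128 and 84.0 on the AAT-treated, 263 and 262 on the diabetic and 290 and 39.3 on the normoglycemic arrays. There both AAT-treated arrays were below both diabetic arrays. These probe sets cannot be assigned to 1 gene, and none was tested. Of the 7 lymph node stroma markers 3 were above the filter, and Glycam1, Fcer2a, Prox1 and Chst4 were under it. The 7 summed to 1582 and 1692 on the AAT-treated arrays, 1548 and 2611 on the diabetic arrays and 1649 and 789 on the normoglycemic arrays. AAT-treated array 1 did not stand out in these sums.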
